A study of Homo sapiens with 6 samples.

Results

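Matrix metalloproteinases (MMPs), ADAMs (a disintegrin and metalloproteinase) and tissue inhibitors of metalloproteinases (TIMPs) were examined in keratinocytes that received a miR-21-3p mimic. The genes were taken by name: MMP1, MMP9, MMP10, MMP13, MMP14, ADAM10, ADAM17, TIMP1, TIMP2 and TIMP3, 10 genes in all. Of these, 8 were matched by symbol among the 22152 gene rows of the deposited table, and MMP9 and MMP10 were not analysed here. HaCaT cells, a spontaneously immortalized human keratinocyte line widely used as a keratinocyte model, were transfected with synthetic small RNAs. The NC group (3 libraries) received 1 nM of a negative control mimic, and the miR-21-3p group (3 libraries) received 1 nM of a mimic of the passenger strand of miR-21. Polyadenylated RNA was sequenced 48 h after transfection. Such libraries do not measure the mimic itself, and its level in the cells was not analysed here.

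MMPs are zinc-dependent endopeptidases that are made as inactive proenzymes and, once activated, cut collagens and other matrix proteins, whereas ADAM10 and ADAM17 sit in the membrane and release the outer part of adhesion molecules, receptors, cytokines and growth factors. TIMPs block both classes by occupying the active site, and TIMP3, which binds to the matrix, is the physiological inhibitor of ADAM17. In epidermis these enzymes are known for re-epithelialization of wounds and for shedding of ligands of the epidermal growth factor receptor.

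The values were gene read counts divided by 1 size factor per library, called normalised read counts below. They corresponded to an estimated 24402588 to 26170936 reads per NC library and 24808070 to 27985138 reads per miR-21-3p library, approximate totals because large values were printed to 3 significant digits. Between 15974 and 16056 genes were above 0 in each library. Keratinocyte markers were abundant, with KRT5, the basal keratin, at a mean of 131833 and a summed level of 11 of the 12 listed markers between 373660 and 423280. A gene was called when its limma adjusted p (Benjamini-Hochberg) was under 0.05. Of these 11 markers 2 were called, against 10.8% of all genes, and 9 were not. Of those not called, KRT5 (log2 fold change 0.026), DSG3 (0.076) and SFN (0.15) were above 0. The others were below 0: TP63 (-0.129), COL17A1 (-0.090), KRT14 (-0.071), ITGA6 (-0.033), DSC3 (-0.021) and CDH1 (-0.004). Both called markers were lower in the miR-21-3p group: KRT15, another basal keratin, by log2 -0.33, and ITGB4, a hemidesmosome integrin, by log2 -0.26. These markers, and the CDH5 gene below, are named after their values were seen. In limma with Benjamini-Hochberg adjustment the adjusted p was 0.0101 for KRT15 and 0.0381 for ITGB4. Without NC replicate 3 or miR-21-3p replicate 1 the limma Benjamini-Hochberg adjusted p of KRT15 was 0.068 or 0.0558, and that of ITGB4 was 0.134 or 0.145. The ITGB4 call was also lost without NC replicate 1 or miR-21-3p replicate 3, at limma Benjamini-Hochberg adjusted p of 0.142 and 0.138.

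Markers of other cell types were far lower. Of the fibroblast markers, 1 of 10 was measured, COL1A1, at 560, 390 and 478 in NC and 372, 378 and 364 in miR-21-3p. Of the endothelial markers, 2 of 7 were measured, with summed levels of 1197, 1087 and 1119 in NC and 877, 925 and 883 in miR-21-3p, VWF being the most abundant at a mean of 744.5. VWF itself was 720, 801 and 726 in NC and 712, 747 and 761 in miR-21-3p (log2 -0.016; limma Benjamini-Hochberg adjusted p 0.893), so the lower sum came from CDH5 alone. CD14 was the leukocyte marker measured (1 of 9), at 58.7 to 92.2, and PMEL and MITF were the melanocyte markers measured (2 of 6), with sums from 585 to 640. No measured marker was at 0 in all libraries, and the other listed markers were not analysed here. CDH5, an adhesion molecule best known from endothelium, was lower, with a log2 fold change of -1.29 (SE 0.17; -1.49 without NC replicate 2), 477, 286 and 393 in NC and 165, 178 and 122 in miR-21-3p and a limma Benjamini-Hochberg adjusted p of 0.00258. Whether these levels have a part in the differences below was not tested. The cultures were of a single keratinocyte line, and in such bulk libraries fewer cells with an RNA cannot be told apart from less of it per cell.

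NC replicate 2 stood apart from the other NC libraries on the first principal component, which held 47.0% of the variance. There it lay at -1.74, between NC replicates 1 and 3 at -21.2 and -13.4 and the miR-21-3p libraries at 11.6, 6.81 and 17.9. On the second component, with 15.6% of the variance, NC replicates 1 to 3 lay at 4.90, 7.18 and -5.41. The miR-21-3p replicates 1 to 3 lay at -4.60, -12.2 and 10.1 there, so the miR-21-3p group was scattered as well. NC replicate 2 was picked for its place near the miR-21-3p libraries, so leaving it out tends to widen the group difference. Calls gained without it are therefore no separate evidence of a difference. Limma counts for all genes, the genes examined here and the gene lists below are given with and without NC replicate 2. So are the values of the described genes whose call depends on it.

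The comparison of the mimics asked which genes differed after miR-21-3p delivery. Over all 14782 genes tested, 909 were higher and 691 were lower in the miR-21-3p group, which is 10.8% called (limma on log2(value + 1), Benjamini-Hochberg adjusted p under 0.05); 6.15% were called higher and 4.67% lower. Among the 8 genes examined here 1 was called, MMP13, which was lower, a share near that of all genes. Without NC replicate 2, 20.0% of genes were called (1629 higher and 1334 lower), and 3 of the 8 were called, MMP1, MMP13 and TIMP3, all lower. Leaving out miR-21-3p replicate 2 moved the counts little (899 higher and 641 lower). Leaving out any other library left far fewer genes called: 316 higher and 229 lower without NC replicate 1, 98 and 81 without NC replicate 3, 147 and 132 without miR-21-3p replicate 1, and 203 and 165 without miR-21-3p replicate 3. The 2 groups did not overlap for MMP13 and TIMP1, 2 of 8 genes, against 31.3% of all genes tested.

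MMP13 (collagenase 3), which cleaves fibrillar collagens and is itself activated by MMP14, had normalised read counts of 1360, 1030 and 1350 in NC replicates 1 to 3 and of 754, 798 and 614 in miR-21-3p replicates 1 to 3. All miR-21-3p libraries were below all NC libraries, and NC replicate 2 was the lowest of its group. The means were 1247 ± 188 (SD, n = 3) in NC and 722 ± 96.1 (SD, n = 3) in miR-21-3p. The fitted level was 0.581 times that of NC (95% interval 0.491 to 0.687), a log2 fold change of -0.78 (SE 0.11) with a limma Benjamini-Hochberg adjusted p of 0.00347. Without NC replicate 2 the log2 fold change was -0.92 (SE 0.090) with a limma Benjamini-Hochberg adjusted p of 3.2e-05. The call held with each of the 6 libraries left out in turn, the limma Benjamini-Hochberg adjusted p being 0.0309 at most.

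MMP1 (collagenase 1), the interstitial collagenase that keratinocytes make when they migrate over dermal collagen, had 151, 73.1 and 132 in NC and 90.8, 89.1 and 87.9 in miR-21-3p. The miR-21-3p libraries lay close together, below NC replicates 1 and 3 and above NC replicate 2, so the groups overlapped. The 71 reads behind the value of NC replicate 2 have an exact 95% Poisson interval of 55.5 to 89.6 and the 145 and 135 reads of NC replicates 1 and 3 have intervals of 122.4 to 170.6 and 113.2 to 159.8; these cover counting error and not the spread between cultures. With all libraries the log2 fold change was -0.34 (SE 0.21, 95% interval -0.81 to 0.12) and the limma Benjamini-Hochberg adjusted p was 0.317. Without NC replicate 2 it was -0.66 (SE 0.14) with a limma Benjamini-Hochberg adjusted p of 0.0047. It was -0.14 without NC replicate 1 and -0.23 without NC replicate 3 (limma Benjamini-Hochberg adjusted p 0.747 and 0.62), and between -0.35 and -0.33 without a miR-21-3p library. The size of the MMP1 difference thus rests on which NC libraries are included. In the annotation MMP1 shares 150 of its 1970 exon bases (7.6%) with the pseudogene WTAPP1 on the opposite strand, and the strand setting of the counting was not given in the sources used here, so reads from these bases are uncertain.

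MMP14 (membrane type MMP), which activates proMMP2 and proMMP13 at the cell surface, had 17100, 16700 and 17000 in NC and 16400, 17300 and 15900 in miR-21-3p. The groups overlapped, miR-21-3p replicate 2 being the highest of all libraries and replicate 3 the lowest. Its log2 fold change was -0.035 (SE 0.046, 95% interval -0.14 to 0.065), with a limma Benjamini-Hochberg adjusted p of 0.654. On the linear scale the interval runs from 0.910 to 1.046 times the NC level. With 1 library left out the log2 fold change of MMP14 ran from -0.068 (without miR-21-3p replicate 2) to -0.008 (without miR-21-3p replicate 3).

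**Figure D1:**
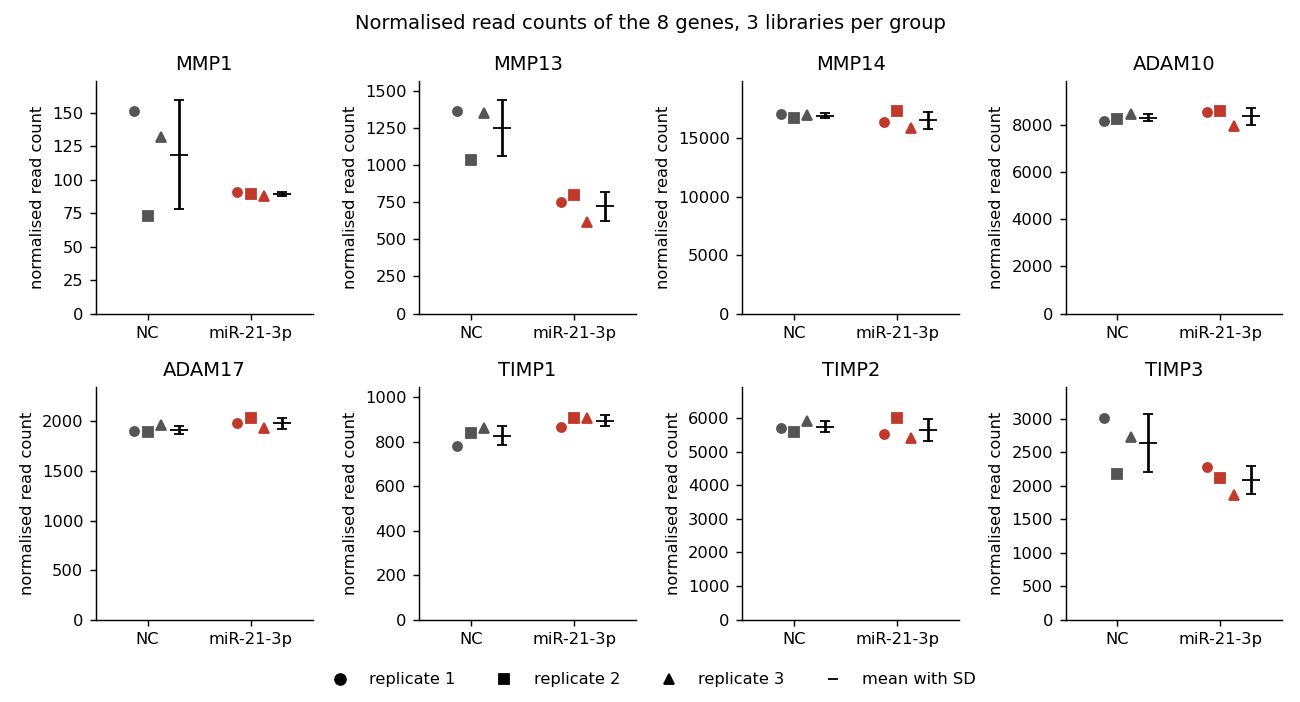
Normalised read counts (y axes, from 0) of MMP1, MMP13, MMP14, ADAM10, ADAM17, TIMP1, TIMP2 and TIMP3 in the NC and miR-21-3p groups; each symbol is 1 library, its shape gives the replicate number, and the bar is the mean with SD of 3 libraries. MMP13 lies at 614 to 798 in miR-21-3p and at 1030 to 1360 in NC, and NC replicate 2 is the lowest NC library for MMP1, MMP13 and TIMP3.

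ADAM17, the sheddase of tumor necrosis factor and of several ligands of the epidermal growth factor receptor, had 1900, 1890 and 1960 in NC and 1980, 2040 and 1930 in miR-21-3p. The groups overlapped, since miR-21-3p replicate 3 was below NC replicate 3. Its log2 fold change was 0.049 (SE 0.047, 95% interval -0.052 to 0.15) with a limma Benjamini-Hochberg adjusted p of 0.524, and the interval on the linear scale was 0.964 to 1.110 times NC. With 1 library left out the log2 fold change of ADAM17 ran from 0.029 (without miR-21-3p replicate 2) to 0.069 (without miR-21-3p replicate 3). Of the ADAM17 exon bases, 12.3% are shared with IAH1 on the opposite strand, a gene measured at 337 to 396, so part of its reads is uncertain in the same way.

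ADAM10, which cleaves Notch receptors, E-cadherin and CD44, had 8170, 8250 and 8470 in NC and 8530, 8560 and 7950 in miR-21-3p. The lowest library of all was miR-21-3p replicate 3 and the highest was miR-21-3p replicate 2. In the fit the log2 fold change was 0.008 (SE 0.045, 95% interval -0.090 to 0.11; limma Benjamini-Hochberg adjusted p 0.926), and its sign changed when NC replicate 1, miR-21-3p replicate 1 or miR-21-3p replicate 2 was left out.

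TIMP3 is the inhibitor through which miR-21 has been tied to ADAM17, and that link belongs to the guide strand, miR-21-5p. The mature guide strand and the places in the TIMP3 3′ UTR that pair with its seed are shown for this reason. The seed, bases 2 to 8, is in capitals (RefSeq, GRCh38.p14, chr17:59841273-59841294, plus strand):
hsa-miR-21-5p: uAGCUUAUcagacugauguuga
Its complement, ATAAGCT, was searched on the transcript strand in the longest annotated 3′ UTR of each gene (GENCODE 29, GRCh38). TIMP3 held it at 2 positions, both followed by A, at bases 1032 to 1038 and 2385 to 2391 of a 3′ UTR of 3666 bases, on the plus strand at chr22:32860395-32860416 and chr22:32861748-32861769. Capitals mark the letters that pair with the seed:
TIMP3 first match: acccacatggggacATAAGCTa
TIMP3 second match: gttttgagctttctATAAGCTa
Among 1872 genes with a 3′ UTR of 80 to 120% of that length, 19.2% held the letters, and over all 19129 genes searched 8.57% did. The other 7 genes, MMP1, MMP13, MMP14, ADAM10, ADAM17, TIMP1 and TIMP2, held no match in this window. These matches describe the letters only and belong to the strand that was not transfected; no search was made for miR-21-3p.

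The TIMP3 gene had 3020, 2170 and 2730 in NC and 2280, 2110 and 1860 in miR-21-3p. NC replicates 1 and 3 were above every miR-21-3p library, but NC replicate 2 lay between miR-21-3p replicates 1 and 2, so the groups overlapped. The means were 2640 ± 432 (SD, n = 3) and 2083 ± 211 (SD, n = 3). The log2 fold change was -0.33 (SE 0.10, 95% interval -0.56 to -0.11), with an unadjusted p of 0.00675 and an adjusted p of 0.0561 by limma with Benjamini-Hochberg, which did not pass the threshold. Without NC replicate 2 it was -0.47 (SE 0.074) and passed, with a limma Benjamini-Hochberg adjusted p of 5.7e-04. On reads recovered from the values, TIMP3 passed narrowly in edgeR (Benjamini-Hochberg adjusted p 0.048) and did not pass in DESeq2 (Benjamini-Hochberg adjusted p 0.153). With any other library left out TIMP3 did not pass in limma: the log2 fold change was -0.23 without NC replicate 1, -0.30 without NC replicate 3, and -0.40, -0.34 and -0.25 without miR-21-3p replicates 1, 2 and 3. The limma Benjamini-Hochberg adjusted p in these fits was 0.199, 0.184, 0.0864, 0.0877 and 0.197, in the same order. TIMP3 was below 0 in each fit, and its call depended on the libraries and the tool.

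The TIMP3 gene lies inside SYN3, which is on the opposite strand and shares none of its exon bases. SYN3, which encodes a synaptic vesicle protein, is named here because of this position and after its values were seen. It had 47.9, 51.5 and 64.4 in NC and 26.5, 29.7 and 26.9 in miR-21-3p, with no overlap between the groups. Its log2 fold change was -0.95 (SE 0.19) and its limma Benjamini-Hochberg adjusted p 0.0114, or 0.075 without NC replicate 3 and 0.0538 without miR-21-3p replicate 1. Whether reads from the TIMP3 locus entered the SYN3 count was not tested.

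TIMP1, a secreted inhibitor of most soluble MMPs that blocks MMP14 poorly, had 779, 838 and 862 in NC and 864, 908 and 908 in miR-21-3p. The groups did not overlap, but the highest NC library and the lowest miR-21-3p library were nearly level. For TIMP1 the log2 fold change was 0.11 (SE 0.060, 95% interval -0.017 to 0.24) and did not pass (limma Benjamini-Hochberg adjusted p 0.237). It ran from 0.071 without NC replicate 1 to 0.14 without NC replicate 3 and passed in none of the fits with 1 library left out (lowest limma Benjamini-Hochberg adjusted p 0.223).

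TIMP2, which inhibits MMP14 and also links proMMP2 to it for activation, had 5710, 5590 and 5920 in NC and 5520, 6010 and 5410 in miR-21-3p. The NC range lay inside the miR-21-3p range. For TIMP2 the log2 fold change was -0.025 (SE 0.049, 95% interval -0.13 to 0.083; limma Benjamini-Hochberg adjusted p 0.775), and it changed sign without miR-21-3p replicate 3. In the annotation 3.5% of the TIMP2 exon bases are shared with CEP295NL on the same strand and 6.5% with an antisense gene that was measured at 7.81 at most.

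Among the inhibitors, then, TIMP3 had a lower mean in miR-21-3p, TIMP1 a higher one and TIMP2 one nearly the same. None of the 3 passed in the limma fit used here. Of the 3, 1, TIMP3, had an unadjusted limma p under 0.05, as had 4218 of all 14782 genes. On recovered reads edgeR called 1 of 3, against 1640 of 14792 genes, and DESeq2 called 0, against 1613 of 14782. Of the 5 proteases 1 passed in limma. With so few genes the limma counts are not set apart from the 10.8% of all genes called. Without NC replicate 2, limma called 2 of the 5 proteases lower, MMP1 and MMP13, and 1 of the 3 inhibitors, TIMP3. In that fit 20.0% of all genes were called. Leaving out this library changed no call among MMP14, ADAM10, ADAM17, TIMP1 and TIMP2, whose log2 fold changes were then -0.045, 0.004, 0.039, 0.12 and -0.044. The median log2 fold change was -0.035 for the proteases and -0.025 for the inhibitors, against 0.004 for all genes tested.

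**Figure D2:**
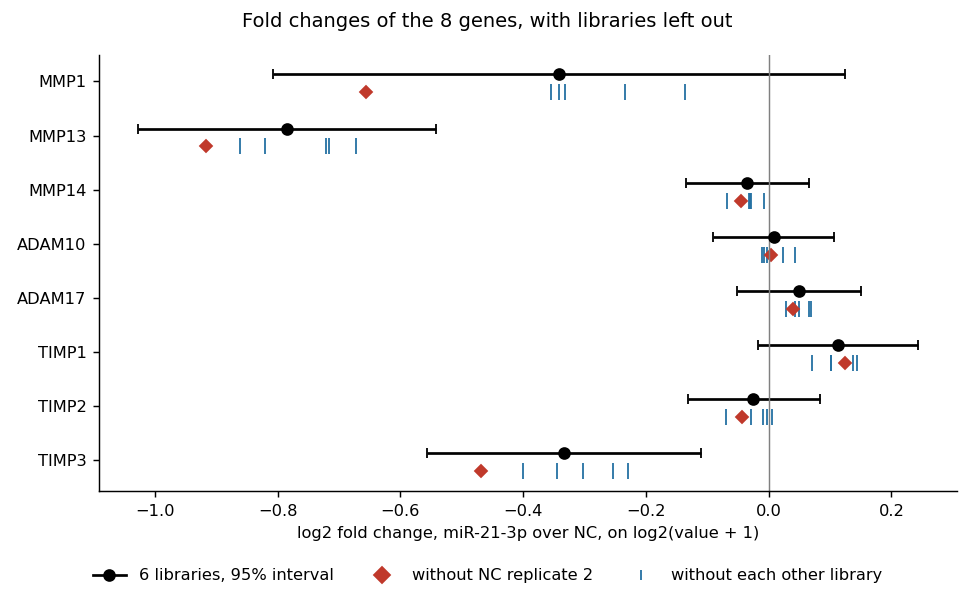
Log2 fold change of miR-21-3p over NC on the log2(value + 1) scale (x axis) for the 8 genes; black points and bars are the fit of all 6 libraries with its 95% interval, red diamonds the fit without NC replicate 2, and blue ticks the fits without each other library. MMP13 stays below -0.67 in each fit, and the values for MMP1 and TIMP3 without NC replicate 2 (-0.66 and -0.47) are farther from 0 than in the other fits.

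Levels of different genes were compared per kilobase of annotated exons, taken as the union over all annotated transcripts. This length was 10750 bases for ADAM17 and 16168 for ADAM10, against 2834 for MMP13. Where the transcripts made in these cells are shorter than the union, the level per kb is too low. The order of genes, such as ADAM17 against MMP13, therefore depends on the length used. In this measure MMP14 was the most abundant, at 3562 to 3875 per kb over the 6 libraries, followed by TIMP2 at 960.4 to 1067. TIMP1 (505.5 to 589.2 per kb), ADAM10 (491.7 to 529.4 per kb) and TIMP3 (404.1 to 656.1 per kb) overlapped in range as neighbours in the order. Within libraries TIMP1 was above ADAM10 in 5 of 6, and in NC replicate 1 they could not be separated at the printed digits (505.5 and 505.3 per kb), whereas ADAM10 and TIMP3 changed places between libraries. MMP13 (216.7 to 479.9 per kb) overlapped TIMP3 in range but was below it within every library, ADAM17 (175.8 to 189.8 per kb) was below MMP13 in every library, and MMP1 (37.1 to 76.7 per kb) was the lowest. HaCaT cells of both groups thus carried MMP14 and TIMP2 RNA above the soluble collagenases. Of the level summed over MMP1, MMP13 and MMP14, MMP14 made up 87.3, 90.3 and 87.5% in NC and 92.2, 92.2 and 93.2% in miR-21-3p, where the lower MMP13 level leaves it a larger share.

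Protease to inhibitor ratios were formed within each library from these levels per kb and are given as descriptions. The size of each ratio depends on the lengths used. For a ratio of single genes the relation between the groups does not. ADAM17 over TIMP3 was 0.269, 0.373 and 0.307 in NC and 0.372, 0.414 and 0.444 in miR-21-3p. The groups overlapped by NC replicate 2 alone, which was just above the lowest miR-21-3p library. Since ADAM17 differed little, this ratio mostly follows TIMP3. MMP13 over TIMP3 was 0.731, 0.771 and 0.803 in NC and 0.537, 0.614 and 0.536 in miR-21-3p. This ratio was lower in each miR-21-3p library, and here NC replicate 2 lay between the other NC libraries, both of its genes being low there. MMP14 over TIMP2 was 3.78, 3.77 and 3.62 in NC and 3.75, 3.63 and 3.71 in miR-21-3p, and MMP1 over TIMP1 was 0.152, 0.0682 and 0.120 against 0.0822, 0.0768 and 0.0757. Both of these overlapped. The 5 proteases summed over the 3 inhibitors summed gave 2.33, 2.41 and 2.30 in NC and 2.31, 2.33 and 2.30 in miR-21-3p, all within the range of the NC libraries. MMP14 makes up most of the protease sum and TIMP2 the largest part of the inhibitor sum, so this ratio responds little to MMP13 or TIMP3.

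**Figure D3:**
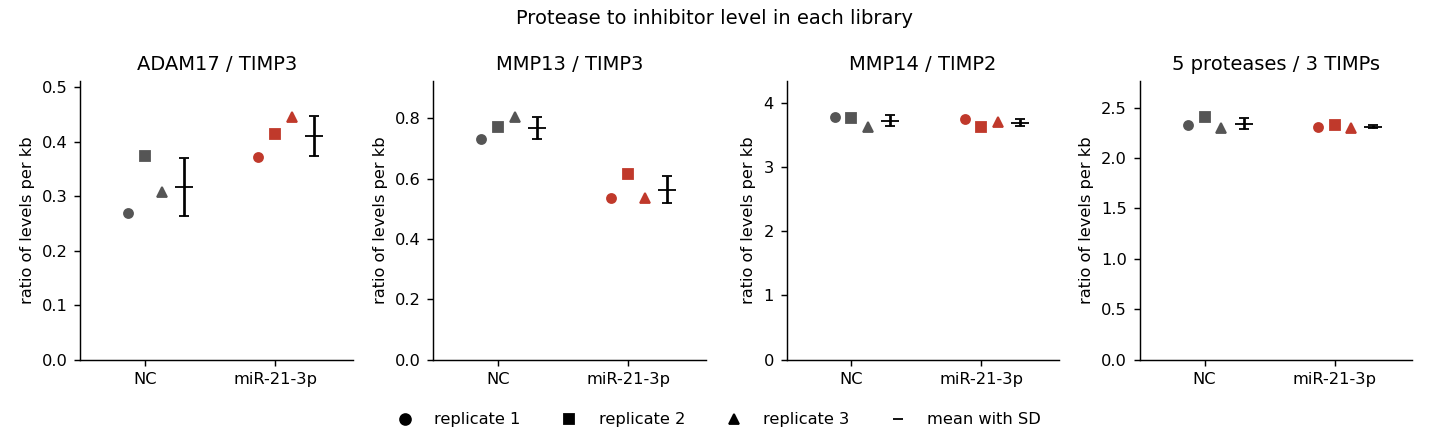
Ratio of levels per kb of exon (y axes, from 0) for ADAM17 to TIMP3, MMP13 to TIMP3, MMP14 to TIMP2 and the 5 proteases to the 3 TIMPs; each symbol is 1 library and the bar is the mean with SD of 3. MMP13 to TIMP3 is 0.536 to 0.614 in miR-21-3p and 0.731 to 0.803 in NC, whereas the summed ratio lies between 2.30 and 2.41 in all 6 libraries.

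In the wider MMP family, 10 of 23 genes were measured and all 10 were tested. None was called higher and 2 were called lower, MMP13 and MMP12 (20%, against 10.8% of all genes called in either direction and 4.67% called lower), and without NC replicate 2 the count was 0 higher and 4 lower, against 20.0% of all genes called. With all libraries 8 of the 10 log2 fold changes were below 0, with a median of -0.071 against 0.004 for all genes. MMP12, the macrophage elastase, had 76.1, 46.4 and 69.3 in NC and 36.7, 35.9 and 39.5 in miR-21-3p. The groups did not overlap, with NC replicate 2 again the lowest NC library. MMP12 had a log2 fold change of -0.73 (SE 0.20) with a limma Benjamini-Hochberg adjusted p of 0.037. This call held only without NC replicate 2 among the fits with 1 library left out (log2 -0.94, limma Benjamini-Hochberg adjusted p 0.00335). It was lost without NC replicate 1 (limma Benjamini-Hochberg adjusted p 0.142), NC replicate 3 (0.147), miR-21-3p replicate 1 (0.115), miR-21-3p replicate 2 (0.07) or miR-21-3p replicate 3 (0.0887). RefSeq (GRCh38.p14) lists 9 MMP genes next to each other on chromosome 11, of which MMP1, MMP12 and MMP13 had values. Among the 10 MMP genes tested, the highest log2 fold change was that of MMP11, stromelysin 3, at 0.32 (95% interval -0.092 to 0.73, limma Benjamini-Hochberg adjusted p 0.291). Without NC replicate 2, MMP28 (epilysin), an MMP of keratinocytes, was also called lower: its log2 fold change was -0.14 with all libraries, and the limma Benjamini-Hochberg adjusted p was 0.0981 with and 0.0328 without that library.

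Of the ADAM family 8 of 21 genes were measured and tested, and 1 was called, in the higher direction, with or without NC replicate 2 (12.5%, against 10.8% of all genes with that library and 20.0% without it). This was ADAM8, a protease first known from leukocytes, at 4270, 4170 and 4000 in NC and 4550, 4740 and 4810 in miR-21-3p, with no overlap. In limma the log2 fold change was 0.18 (SE 0.045; Benjamini-Hochberg adjusted p 0.0263). The call was lost without NC replicate 3 (limma Benjamini-Hochberg adjusted p 0.133) or miR-21-3p replicate 1 (0.0729), 2 (0.0548) or 3 (0.101). The median over the family was 0.018. Of the ADAMTS family, secreted proteases of matrix proteoglycans and von Willebrand factor, 5 of 19 genes were measured. None was called by limma, edgeR or DESeq2 with all libraries. Over all genes limma called 10.8%, edgeR 1640 of 14792 and DESeq2 1613 of 14782. An unadjusted limma p under 0.05 was found for 2 of the 5 and for 4218 of all 14782 genes. Leaving out NC replicate 2 gave 0 higher and 1 lower in limma, against 20.0% of all genes called. The most abundant of them, ADAMTS1, was 355.7 ± 11.7 in NC and 372.7 ± 33.0 in miR-21-3p (SD, n = 3). The next, ADAMTS13, was 297, 198 and 233 in NC against 193, 210 and 175 in miR-21-3p, with a log2 fold change of -0.32 (limma Benjamini-Hochberg adjusted p 0.15). It was -0.45 without NC replicate 2 and -0.16 without NC replicate 1, with limma Benjamini-Hochberg adjusted p of 0.0196 and 0.467.

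The inhibitor list had 6 of 11 genes measured, the 3 TIMPs and 3 others, SPOCK1, SPOCK2 and TFPI2. Of the 6, 1 was called lower, SPOCK2 (16.7%, against 10.8% of all genes), and 2 without NC replicate 2, SPOCK2 and TIMP3 (against 20.0% of all genes in that fit). SPOCK2 encodes testican 2, a proteoglycan known to relieve the inhibition of membrane type MMPs by other testicans rather than to inhibit them. It had 55.2, 43.3 and 53.7 in NC and 31.6, 26.6 and 26 in miR-21-3p, with no overlap and with the lowest NC value again in replicate 2. The log2 fold change was -0.83 (SE 0.19; limma Benjamini-Hochberg adjusted p 0.0192). The limma Benjamini-Hochberg adjusted p was 0.0729 without NC replicate 1, 0.0928 without NC replicate 3, 0.0533 without miR-21-3p replicate 1 and 0.0739 without miR-21-3p replicate 3.

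Of 13 genes listed for the trafficking of ADAM10 or ADAM17 in either direction, all were tested. In limma 0 were higher and 1 was lower, with or without NC replicate 2 (7.69%, against 10.8% of all genes with that library and 20.0% without it). An unadjusted limma p under 0.05 was found for 1 (4218 of all 14782 genes had one). The median log2 fold change was -0.062. The one called was SORL1, a sorting receptor best known for the amyloid precursor protein, at 12100, 10700 and 12000 in NC and 9770, 10400 and 8990 in miR-21-3p. The groups did not overlap and the log2 fold change was -0.26 (SE 0.062; limma Benjamini-Hochberg adjusted p 0.0235). The limma Benjamini-Hochberg adjusted p rose to 0.0876 without NC replicate 1, 0.113 without NC replicate 3, 0.0902 without miR-21-3p replicate 1 and 0.0968 without miR-21-3p replicate 3. RHBDF2, the rhomboid relative that ADAM17 needs for its maturation, had a log2 fold change of 0.088 (95% interval -0.044 to 0.22; limma Benjamini-Hochberg adjusted p 0.368); this gene and RHBDF1 are named outside the rule for genes, for their role. RHBDF1 had -0.062 (95% interval -0.18 to 0.057; limma Benjamini-Hochberg adjusted p 0.491).

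Of 18 genes of proenzyme activation, the convertases, the plasminogen system, kallikreins and their inhibitors, 17 were measured, 4 were higher and 1 was lower (29.4%, against 10.8% of all genes), with a median log2 fold change of 0.078. The counts were 4 higher and 3 lower without NC replicate 2, where 20.0% of all genes were called. SERPINB2, an inhibitor of urokinase, had 1230, 1470 and 1380 in NC and 1850, 1750 and 1940 in miR-21-3p. PCSK5, a proprotein convertase, had 3810, 4040 and 4100 in NC and 3290, 3220 and 3160 in miR-21-3p. Neither gene overlapped between the groups, and both stayed called with any 1 library left out. Fitted log2 fold changes were 0.44 (SE 0.067) for SERPINB2 and -0.30 (SE 0.046) for PCSK5, with limma Benjamini-Hochberg adjusted p of 0.00451 and 0.0043. PCSK6, another convertase, was higher by log2 0.40 (limma Benjamini-Hochberg adjusted p 0.0259), from 251, 205 and 255 in NC to 310, 300 and 328. Its limma Benjamini-Hochberg adjusted p was 0.0666 without NC replicate 3, 0.0944 without miR-21-3p replicate 1 and 0.101 without miR-21-3p replicate 3. SERPINB5 (maspin), a serpin without known protease inhibition, was higher by log2 0.28 and KLK7, a chymotrypsin-like protease of corneocyte shedding, by log2 0.25, with limma Benjamini-Hochberg adjusted p of 0.0143 and 0.0151. The SERPINB5 call was lost without NC replicate 1, NC replicate 3, miR-21-3p replicate 1 or miR-21-3p replicate 3, at limma Benjamini-Hochberg adjusted p of 0.0575, 0.0698, 0.0683 and 0.055. The KLK7 call was lost without NC replicate 1, NC replicate 3 or miR-21-3p replicate 3, at limma Benjamini-Hochberg adjusted p of 0.0532, 0.0553 and 0.0503. Of the genes called in this list, SERPINB2 is thus an inhibitor, and PCSK5 and PCSK6, which can activate proenzymes, went in opposite directions.

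Transcription factors of the AP-1, ETS and RUNX classes, which bind promoters of MMP1 and MMP13, were listed as 15 genes, of which 14 were tested, 1 was higher and 1 was lower (14.3%, against 10.8% of all genes), with a median log2 fold change of -0.085. The counts were 2 higher and 4 lower without NC replicate 2, where 20.0% of all genes were called, and DESeq2 on the recovered reads of all libraries called 4 of the 14 and 1613 of all 14782 genes. The largest log2 fold change of the list was that of FOSL1, an AP-1 subunit, at 0.485 (95% interval 0.165 to 0.805), whereas 10 of the 14 genes were below 0. FOSL1, named for this size and outside the rule for genes, was not called with all libraries (limma Benjamini-Hochberg adjusted p 0.0536, or 0.0316 without NC replicate 2). ETV4, an ETS activator, had 700, 756 and 635 in NC and 887, 879 and 1010 in miR-21-3p. Its log2 fold change was 0.41 (SE 0.077; limma Benjamini-Hochberg adjusted p 0.0101, or 0.0622 without NC replicate 3). ELF3, an epithelial ETS factor, had 5330, 5010 and 5390 in NC and 4380, 4760 and 4350 in miR-21-3p, a log2 fold change of -0.22 (SE 0.050; limma Benjamini-Hochberg adjusted p 0.0183). Neither gene overlapped between the groups. The ELF3 call was lost without NC replicate 1, NC replicate 3, miR-21-3p replicate 1 or miR-21-3p replicate 3, at limma Benjamini-Hochberg adjusted p of 0.058, 0.0961, 0.096 and 0.077.

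Known substrates of ADAM10 and ADAM17 were listed as 43 genes, of which 33 were tested, 5 were higher and 3 were lower (24.2%, against 10.8% of all genes), with a median log2 fold change of -0.021. Leaving out NC replicate 2 gave 5 higher and 6 lower, against 20.0% of all genes called in that fit. MET, the receptor of hepatocyte growth factor, had 2790, 2710 and 2840 in NC and 3720, 3930 and 3690 in miR-21-3p. AXL, a receptor tyrosine kinase that binds GAS6, had 1250, 1050 and 1140 in NC and 895, 877 and 824 in miR-21-3p. Both kept their calls with any 1 library left out. Their log2 fold changes were 0.44 (SE 0.045) for MET and -0.40 (SE 0.069) for AXL, with limma Benjamini-Hochberg adjusted p of 7.7e-04 and 0.00705. L1CAM, a neural adhesion molecule, had 100, 139 and 117 in NC and 171, 168 and 176 in miR-21-3p (log2 0.54), EREG, a ligand of the epidermal growth factor receptor, had 183, 231 and 199 against 297, 257 and 280 (log2 0.45), and IL6R, the receptor of interleukin 6, had 411, 370 and 405 against 292, 323 and 264 (log2 -0.43). All of these were without overlap between the groups. With all libraries the limma Benjamini-Hochberg adjusted p was 0.0218 for L1CAM, 0.0219 for EREG and 0.0145 for IL6R. These 3 calls were lost when NC replicate 1, NC replicate 3, miR-21-3p replicate 1 or miR-21-3p replicate 3 was left out, in that order at limma Benjamini-Hochberg adjusted p of 0.0753, 0.0867, 0.0851 and 0.0831 for L1CAM, 0.0796, 0.0926, 0.108 and 0.0787 for EREG, and 0.0532, 0.0756, 0.0655 and 0.0633 for IL6R. Transcript levels of substrates do not measure their shedding, which was not tested.

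**Figure D4:**
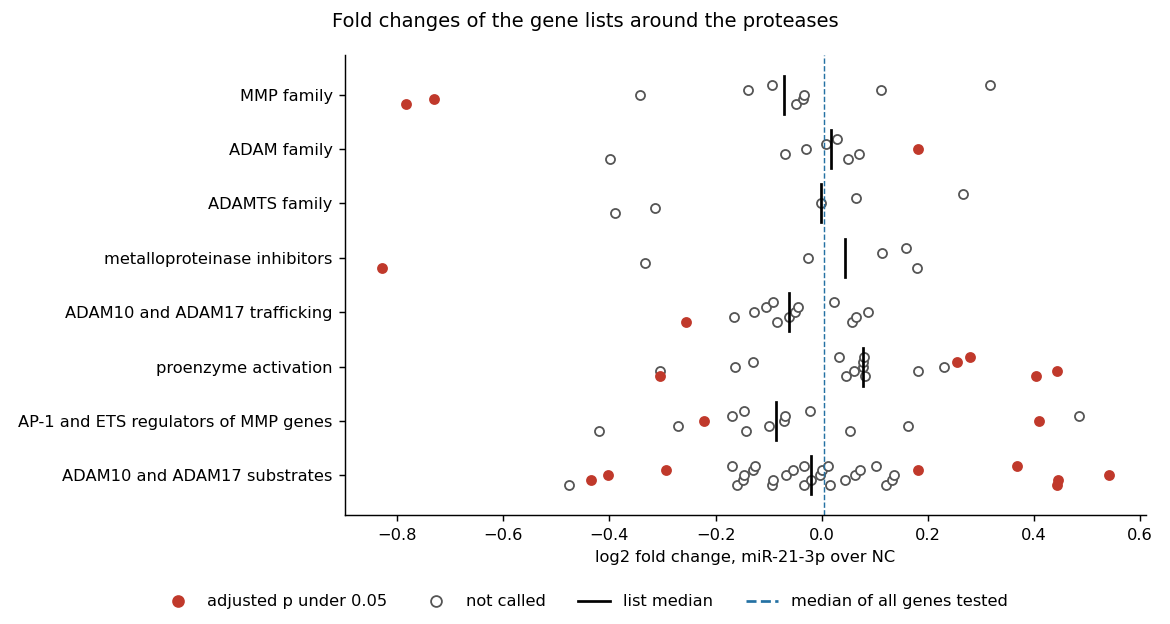
Log2 fold change of miR-21-3p over NC (x axis) for the tested genes of each list (rows); red points have a limma Benjamini-Hochberg adjusted p under 0.05, open points were not called, black bars are list medians and the dashed line is the median of all 14782 genes (0.004). The 2 called MMP genes and SPOCK2 lie below -0.70, and the called genes of the activation and substrate lists lie on both sides of 0.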

How the data were processed

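The deposited values were signal values: per the labels and the values themselves, the authors counted reads per gene and divided them by 1 size factor per library, printed to 3 significant digits. The submitters' notes name bcl2fastq 2.18.12, cutadapt 1.15, TopHat2 2.1.1, featureCounts of Subread 1.5.2 and DESeq2; the genome build was not given in the sources used here. Whole reads could be recovered for low genes: 100% of values between 0 and 100 were within 0.1 of a whole read. The 5635 to 5700 values per library at 1000 or more are known only to their printed digits, so their recovered reads and the totals are approximate, and 5278 rows were 0 in every library. A test of raw counts in edgeR had been planned, but since the values were scaled, limma 3.58.1 (R 4.3.3) with a mean trend was fitted to log2(value + 1) of genes with a mean of at least 10, with Benjamini-Hochberg adjustment over all genes tested and a threshold of 0.05. Fold changes on this scale understate those of low genes. Added after the data were seen, edgeR 4.0.16 on recovered reads called 1640 genes; TMM scaling and pseudocounts of 0.5 and 5 were also added. Other settings tried were DESeq2 1.42.0, library totals, 2 other filters, a replicate block and leaving out each library; size factors of the DESeq2 kind are what the values already hold. Tests were checked on simulated data.

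Lengths were the union of annotated exons (GENCODE 29). Genes named were all members and, from each list, the called genes, at most 5 by absolute log2 fold change, or the 2 most abundant tested genes where none was called. The members and lists were chosen with earlier results of these data known. P-values measure the spread between these 6 libraries, numbered as replicates in the labels. Poisson intervals cover counting error only.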

Additional observations from a re-analysis of the deposited data

How the results depend on the processing

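The count of genes higher in miR-21-3p ran from 98 to 1629 and that of genes lower from 81 to 1334 when 1 library was left out, with fewer libraries in each fit; the number of the 8 genes called ran from 1 to 3. The cause of the gain without NC replicate 2 was not tested. Under edgeR on recovered reads 2 of the 8 were called, MMP13 and TIMP3, against 1640 of all 14792 genes tested there. With the replicate block 2 of the 8 were called, again MMP13 and TIMP3 (limma Benjamini-Hochberg adjusted p 0.0197 for TIMP3), 685 genes were higher and 517 lower, and the ADAM8 call was lost (limma Benjamini-Hochberg adjusted p 0.0694). The replicate numbers did not pair the libraries: same-numbered libraries had correlations of their deviations of -0.006, -0.201 and -0.168, and 0 of 6 correlated best with its own number. The log2 fold change of TIMP2 ran from -0.070 to 0.005 and that of ADAM10 from -0.011 to 0.043 with 1 library left out, each near 0. Of 450 values for 30 named genes under 15 alternatives, 388 kept direction and side of the threshold, 53 no longer passed, 5 newly passed and 4 changed sign. MMP13, SERPINB2, PCSK5, MET, AXL and CDH5 were called in each alternative run. MMP1 and MMP12 rest on 35 to 145 reads per library, and SPOCK2 and SYN3 on 26 to 66, which limits the precision of these genes.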
